A study of Bos taurus with 8 samples.

Results

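The enzymes and the transporter that make, import and use arginine were followed in bovine whole blood: ASS1, ASL, SLC7A1, NOS2, NOS3, GCH1, ARG1, ARG2 and ODC1. The 9 genes were taken by their symbols in the deposited table, which gave 25 probes of 43653 on the array, and 9 of its 16966 gene symbols. They had been proposed with the difference between the groups already known. Their values between groups are therefore a description, without a test. Each probe was read separately, with a record of whether its spot was well above background and whether its surroundings on the array were bright, because large areas of every array were dim.

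The treated group (CPE) was blood kept with 10 µg/ml of a phenolic extract of cowpea leaf, and the untreated group (CONTROL) was blood kept without it. Both were incubated for 30 min at 37 °C under 5% CO2. The blood came from 5 female Holstein Friesian cows that had all received a probiotic for 60 days, so no blood without probiotic stands behind either group. RNA was pooled within each group and read on 4 single-colour arrays per group. The cows in each pool are not given in the sources used here, so the 4 arrays may be technical replicates, and every error below is the spread between arrays. Each group lay on a slide of its own, and the slides were scanned months apart, so slide and extract cannot be told apart.

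Argininosuccinate synthase and argininosuccinate lyase, the products of ASS1 and ASL, rebuild arginine from citrulline, and SLC7A1 carries arginine into the cell. Nitric oxide synthases oxidise arginine to nitric oxide and citrulline, with tetrahydrobiopterin as a cofactor whose synthesis starts at GCH1. Arginases split the same arginine to urea and ornithine, and ornithine decarboxylase, the product of ODC1, turns ornithine into putrescine, the first polyamine. In leukocytes the arginases and the inducible synthase compete for arginine.

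The probes are 60-base oligonucleotides, and a few of their sequences, as deposited, show why probes of 1 gene must be kept apart. The ASS1 probes A_73_P298676 and A_73_115648 overlap: the last 26 bases of A_73_P298676 are the first 26 of A_73_115648, shown first, in capitals. The ODC1 probes A_73_P082986 and A_73_P073241 also share 26 bases, in capitals in both. Overlapping probes can bind the same stretch of transcript, so each pair reads 1 transcript at separate places on the array.

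ASS1 shared stretch: TTGTTGTGATAATTTGTGATTGTGAC

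ODC1 A_73_P082986: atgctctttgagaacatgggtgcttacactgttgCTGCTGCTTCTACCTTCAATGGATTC

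ODC1 A_73_P073241: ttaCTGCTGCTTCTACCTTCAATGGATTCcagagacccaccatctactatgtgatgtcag

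The other pair of ASS1 probes, A_73_P288521 and A_73_P275591, has no such overlap with any probe of the gene. Both were well above background on every CPE array and on no CONTROL array, and the sequence of A_73_P275591 is shown for that reason.

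ASS1 A_73_P275591: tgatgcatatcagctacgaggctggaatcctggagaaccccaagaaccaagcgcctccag

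Of the 25 probes, those of GCH1 carry an Ensembl transcript as accession, and the accession of every other probe matched its gene symbol in RefSeq (ARS-UCD2.0). The array was designed on another genome build than this reference, so no positions are given.

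A spot was called lit on an array when the raw signal of its 61 nearest spots was high: their 90th percentile, in log2, had to exceed the array's own 90th percentile of such local values minus 1.5. The lit share of spots ran from 43.0% to 50.2% in CPE and from 31.9% to 40.9% in CONTROL, and 12970 of 43803 spots were lit on all 8. Of lit spots 57.4% to 69.2% were well above background, against 11.8% to 35.6% of the others. Within groups, r over 7943 lit probes was 0.972 to 0.997 in CPE and 0.982 to 0.996 in CONTROL, against 0.908 to 0.961 between groups. Levels below are log2 of processed signal minus the 75th percentile of the lit spots of that array, and are called lit-scaled levels.

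The scanner software had treated 1 array differently. Per the file headers, CPE array 3 was the only one of the 8 whose signal had been corrected by multiplicative detrending, a division by a smooth surface over the array. On the other 7 arrays the processed signal of spots well above background equalled the background-subtracted signal. On CPE array 3 the ratio of these signals ran from 0.187 to 12.7, with a median of 0.862 over 21832 spots. Among the 14 member probes well above background there, the ratio ran from 0.340 at NOS2 A_73_111433 to 3.70 at ARG1 A_73_P484208. Values of CPE array 3 before this step are therefore also given below for several member probes. For the other member probes and for the related genes, the text gives the intensity of this array after detrending only.

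Of the 25 probes, 9 (from 6 genes) reached the scanner software's call of well above background on all 8 arrays, 11 on some arrays and 5 (of NOS2, NOS3 and ARG1) on none. Over the 200 measurements, 65 of 80 in lit surroundings were well above background, against 46 of 120 in dim ones. The surroundings were bright on all 8 arrays for 6 probes, on some arrays for 10 and on none for 9. Both conditions held on all 8 arrays for 5 probes, 1 each of ASS1, SLC7A1, NOS2, ARG2 and ODC1.

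**Figure D1:**
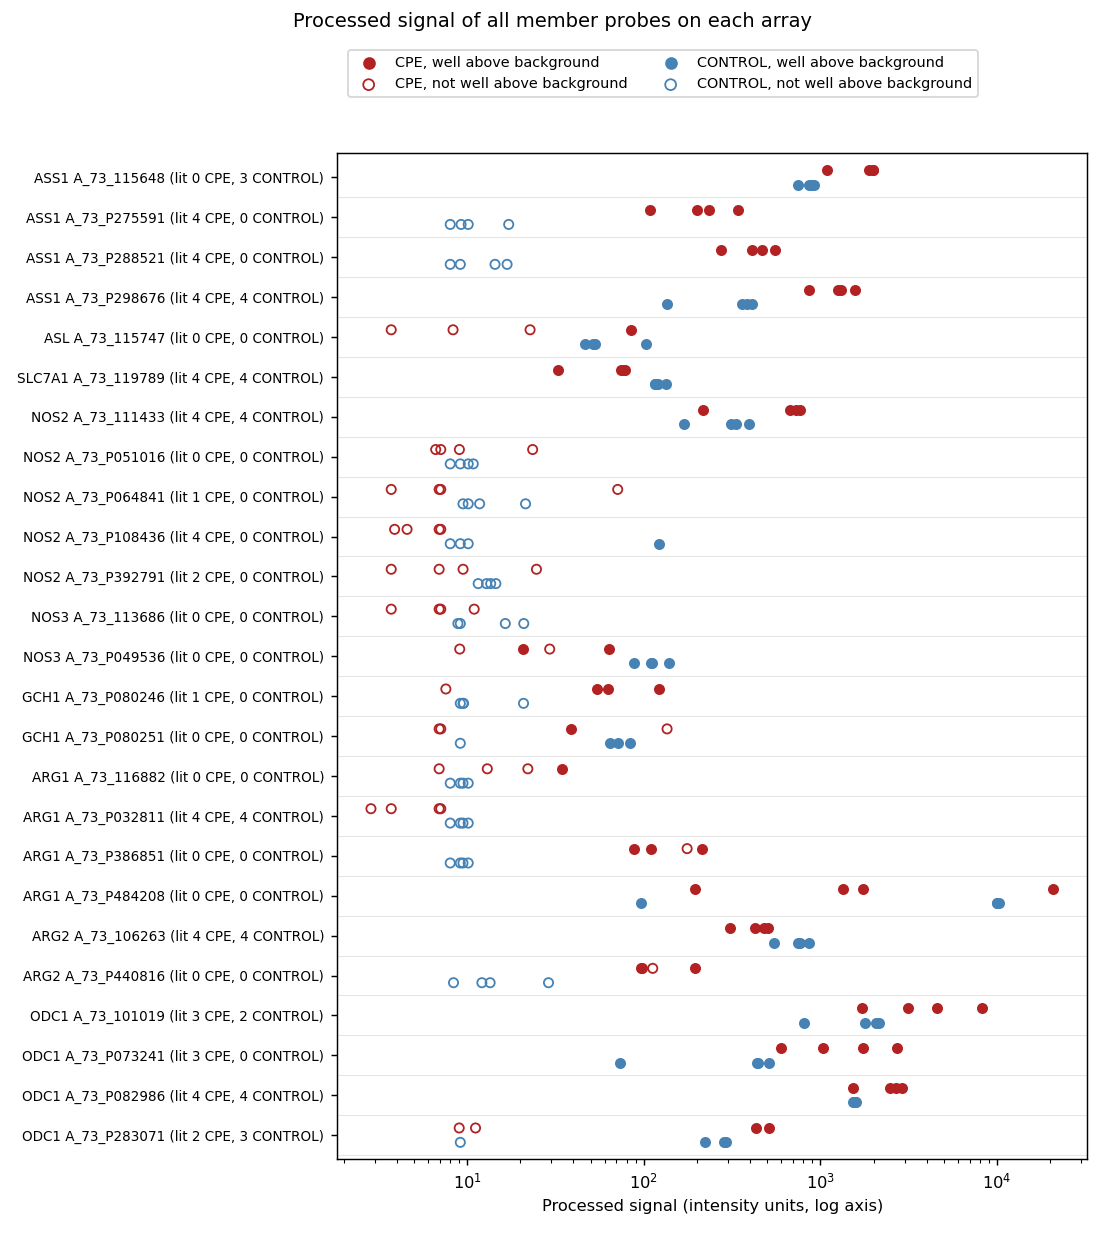
Processed signal (intensity units, log axis) of the 25 probes on each array, CPE in red above CONTROL in blue; filled circles are well above background. Labels give the number of arrays of each group on which the surroundings were lit. The 2 ASS1 probes A_73_P275591 and A_73_P288521 are filled in CPE only, and ARG1 A_73_P032811 is open on all 8 arrays.

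At these 5 probes the groups did not overlap on the lit-scaled levels. ASS1, NOS2 and ODC1 read higher in CPE, and SLC7A1 and ARG2 read lower. Groups without overlap were common, at 50.5% of the 8025 probes tested in the lit area (24.7% higher, 25.8% lower). By limma's adjusted p, 48.4% of them were called (24.5% higher, 23.9% lower), and the median difference was 0.03 log2 units. Scaled to the whole array, 13 of the 25 probes could be tested, of which 2 lay higher in CPE without overlap, 4 lower, and 7 overlapped. The 2 higher probes, both of ASS1, were well above background on every array of CPE only. The lower probes of ASL and NOS3 were so on every array of CONTROL only. Among the 9 probes well above background on all 8 arrays, 0 lay higher without overlap, 2 lower, and 7 overlapped. Over all 14906 probes tested over the whole array, 46.1% had groups without overlap (15.3% higher, 30.8% lower). By limma's adjusted p, 39% of them were called (17.4% higher, 21.6% lower), and the median difference was -0.81. Since the genes were chosen on this contrast, nothing is read from their count. In pooled blood, fewer cells of a type and less RNA per cell cannot be told apart.

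**Figure D2:**
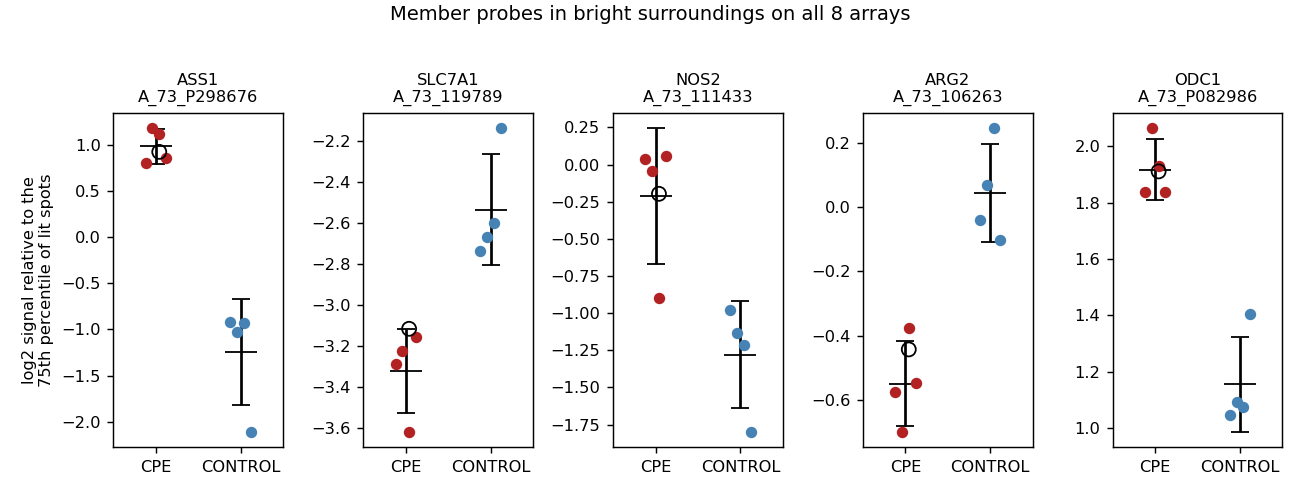
Lit-scaled level (log2, relative to the 75th percentile of lit spots) of the 5 probes in bright surroundings on all 8 arrays, 4 arrays per group, CPE left of CONTROL. Black lines are means with SD, and the open circle is CPE array 3 before multiplicative detrending. CPE lies above CONTROL for ASS1, NOS2 and ODC1 and below it for SLC7A1 and ARG2, and the open circle leaves the red point furthest for NOS2.

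ASS1 catalyses the step that joins citrulline and aspartate. Its probe A_73_P298676 (NM_173892) read 1306, 1574, 866 and 1259 intensity units on CPE arrays 1 to 4, against 409, 360.1, 383 and 136 on CONTROL arrays 1 to 4. Every CPE array was above every CONTROL array, and CONTROL array 4 was the dimmest. The lit-scaled level averaged 0.98 ± 0.19 in CPE, against -1.24 ± 0.58 in CONTROL (SD over the 4 arrays of a group), a difference of 2.23 (SE 0.26, 4.69-fold). It was 1.94 without CONTROL array 4, whose surroundings at this spot were the least bright, 0.93 log2 units above the limit, where the other 7 arrays were at least 1.81 above it. The 21 bright lit neighbours of this spot read higher in CPE too, with a median difference of 0.66, and the difference at the probe was 1.60 after each array was centred on its local median. The part of local brightness in the remaining difference was not tested.

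The overlapping probe A_73_115648 gave smaller differences. It read 1995, 1996, 1098 and 1879 in CPE, against 921, 861, 887 and 748 in CONTROL, and was well above background on all 8 arrays. Every CPE array was again higher, and the ratio of group means was 2.04, or 2.30 with CPE array 3 before detrending, where that array read 1989.8 and the CPE arrays nearly coincided. Before any scaling the ratio of means was 3.89 at A_73_P298676. The surroundings of A_73_115648 lay on the limit, 0.17 below to 0.19 above it in log2, lit on 0 CPE arrays and 3 CONTROL arrays. Scaled to the 75th percentile of the whole array, it differed by 0.05 (SE 0.50) and the groups overlapped, and its size depended on the scaling: it was 0.41 with quantile normalization, 0.94 with bright-probe scaling and 0.99 without scaling. Its sign depended on single arrays: it turned to -0.19 without CPE array 4 and was negative in 5 of the 8 settings that leave out 1 array.

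The non-overlapping ASS1 probes were seen in CPE alone. A_73_P288521 read 412, 550.4, 467 and 275 in CPE, against 16.8, 14.4, 8.03 and 9.15 in CONTROL, and A_73_P275591 read 234, 109, 343 and 201 in CPE, against 17.2, 10.1, 8.03 and 9.25 in CONTROL. Both were well above background on 4 of 4 CPE arrays and 0 of 4 CONTROL arrays. With CONTROL set per array to its lowest well-above-background signal or to the probe's own, whichever was higher, A_73_P288521 was at least 4.70-fold higher in CPE and A_73_P275591 at least 2.33-fold on the whole-array scale. With normexp the log2 differences were 1.49 and 0.84, smaller than these bounds. However, their surroundings were lit on the same 4 CPE arrays and on none of the CONTROL arrays. At A_73_P288521 local brightness was 1.14 to 1.67 above the limit in CPE and 0.51 to 1.41 below it in CONTROL, so detection and surroundings changed together and cannot be told apart.

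**Figure D3:**
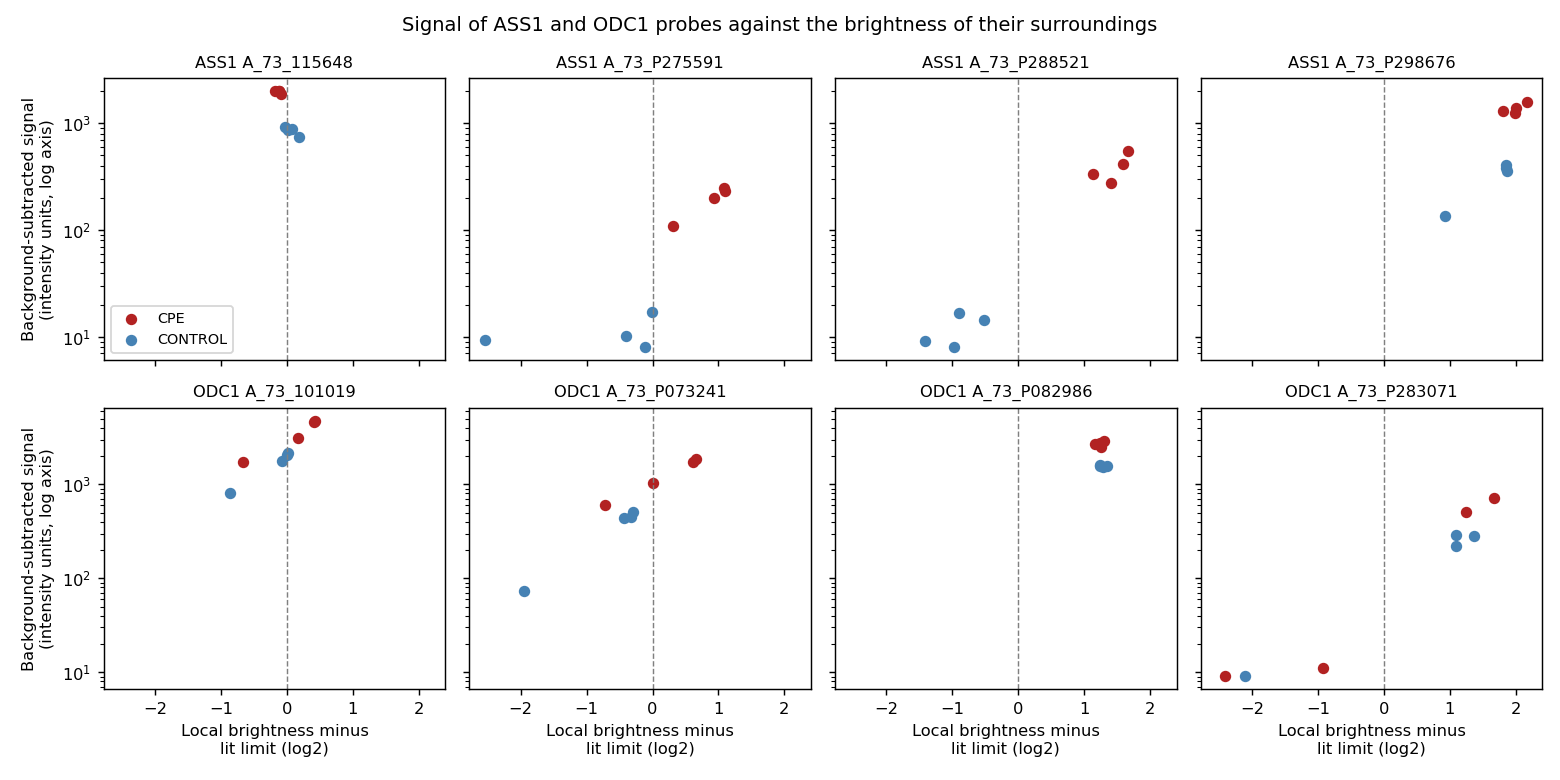
Background-subtracted signal (intensity units, log axis) of the 4 ASS1 probes (top) and 4 ODC1 probes (bottom) against local brightness minus the lit limit (log2), 1 point per array, CPE in red and CONTROL in blue; the dashed line is the limit. The groups separate at nearly equal local brightness for ODC1 A_73_P082986. For ASS1 A_73_P298676, CPE array 1 (1.81) lies beside CONTROL arrays 1 to 3 (1.85 to 1.87). The other CPE arrays lie in brighter surroundings (2.00 to 2.17), and CONTROL array 4 in dimmer ones. For ASS1 A_73_P288521 and ODC1 A_73_P283071 the signal is high only right of the line.

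ASL, the next enzyme of arginine synthesis, had 1 probe, in dim surroundings on all 8 arrays. A_73_115747 (NM_001034428) read 3.72, 22.7, 84.3 and 8.33 in CPE, against 103, 51.5, 46.5 and 52.9 in CONTROL. It was well above background on 1 CPE array and on all 4 CONTROL arrays, and the unscaled groups overlapped through CPE array 3. Scaled to the whole array it differed by -2.89 (SE 0.73), and by -0.51 with normexp background correction.

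SLC7A1, the cationic amino acid transporter CAT-1, read lower in CPE. A_73_119789 (NM_001135792) had 77.0, 74.1, 32.6 and 78.3 units in CPE, against 116, 115, 120.3 and 133 in CONTROL, with bright surroundings on all 8 arrays. The groups did not overlap, and CPE array 3 was the lowest, but it read 83.8 before detrending, the highest of the CPE arrays. The lit-scaled level averaged -3.32 ± 0.20 in CPE, against -2.53 ± 0.27 in CONTROL (SD over the 4 arrays of a group), a difference of -0.79 (SE 0.16, 1.73-fold lower). It was -0.66 with the signals before detrending, -0.54 after local centring and -0.18 with normexp, so for this dim probe the background correction moved the value by more than the spread. Its 36 bright neighbours had a median difference of -0.10.

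NOS2, the inducible nitric oxide synthase of activated leukocytes, had 5 probes. A_73_111433 (NM_001076799) was the only one well above background on all 8 arrays and in bright surroundings on all. It read 771, 675, 215 and 725 in CPE, against 392, 334, 314 and 168 in CONTROL. The unscaled groups overlapped because of CPE array 3, which read 634 before detrending; with that value they did not.

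On the lit-scaled levels NOS2 A_73_111433 was at 0.04, -0.04, -0.90 and 0.05 in CPE and at -0.98, -1.13, -1.22 and -1.80 in CONTROL. The difference was 1.07 (SE 0.25, 2.10-fold), and 1.24 before detrending. It ran from 0.89 to 1.30 over 21 settings of the lit area, but scaled to the whole array it was -0.06 and the groups overlapped. Its 20 bright neighbours had a median difference of -0.25, opposite in sign to that of the probe.

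The other NOS2 probes did not show a transcript above background. A_73_P051016, A_73_P064841 and A_73_P392791 were well above background on 0 of 8 arrays, at 3.72 to 71.2 units in CPE and 8.03 to 21.4 in CONTROL, and A_73_P108436 only on CONTROL array 1, at 122. A_73_P108436 lay in bright surroundings on all 4 CPE arrays, where it read 4.57, 7.10, 3.89 and 6.95, and in dim surroundings on the 4 CONTROL arrays. The difference at A_73_111433 was thus not seen at another NOS2 probe. The sequences of the probe that was seen on all arrays (its first 30 bases) and of A_73_P108436 follow, since they disagree on whether NOS2 was above background.

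NOS2 A_73_111433, start: taaaacaagcaaaccccagtctgcctcttg

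NOS2 A_73_P108436: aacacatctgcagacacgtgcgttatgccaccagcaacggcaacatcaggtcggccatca

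NOS3, the endothelial synthase, is made mainly by cells that line vessels. Its probe A_73_P049536 (NM_181037) read 20.8, 63.6, 9.08 and 29.4 in CPE, against 112, 110, 88.5 and 139 in CONTROL. It was well above background on 2 CPE arrays and all 4 CONTROL arrays, in dim surroundings throughout. Every CPE array was lower, and scaled to the whole array the difference was -3.13 (SE 0.70), or -1.01 with normexp. The other NOS3 probe, A_73_113686, was well above background on 0 of 8 arrays, at 7.18 ± 2.97 units in CPE, against 13.8 ± 5.88 in CONTROL (SD over the 4 arrays of a group).

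Endothelial markers were partly present in this blood: PECAM1 and VWF of 5 listed markers were well above background on all 8 arrays, and the other 3 on none. Summed signals of markers here and below are unscaled and cover all probes of the listed genes, also in dim surroundings. That of the 5 endothelial markers was 730 to 1017 in CPE and 340 to 661 in CONTROL. PECAM1 and VWF are also made by platelets, whose markers summed to 1103 to 17680 in CPE and 426 to 747 in CONTROL. The part of these cells in the NOS3 values was not tested.

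GCH1, the entry enzyme of tetrahydrobiopterin synthesis, had 2 probes that read in opposite directions. A_73_P080246 read 7.58, 62.7, 122 and 54.5 in CPE, against 9.48, 20.9, 9.55 and 9.15 in CONTROL, and was well above background on 3 CPE arrays and 0 CONTROL arrays. A_73_P080251 read 38.7, 7.10, 136 and 6.95 in CPE, against 83.7, 64.6, 71.4 and 9.15 in CONTROL, and was well above background on 1 CPE array and 3 CONTROL arrays. The values of 122 and 136 on CPE array 3 had been 48.4 and 12.1 before detrending. The surroundings were lit on 1 array for A_73_P080246 and on 0 for A_73_P080251, so GCH1 had no probe read in bright surroundings in both groups.

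ARG1, the arginase of liver, granulocytes and alternatively activated macrophages, had 4 probes that disagreed. A_73_P032811 (NM_001046154) lay in bright surroundings on all 8 arrays and was well above background on 0, with 3.72, 7.10, 2.86 and 6.95 in CPE, against 9.48, 10.1, 8.03 and 9.15 in CONTROL. All 8 values are the floors that the scanner software set for each array, on CPE array 3 after detrending, so they have no order between groups. A_73_P386851 read 88.5, 213, 176 and 110 in CPE, against 9.48, 10.1, 8.03 and 9.15 in CONTROL, all 4 at the floor. It was well above background on 3 CPE arrays, and the 176 of CPE array 3 had been 17.1 before detrending.

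A_73_P484208 was the ARG1 probe seen on every array, and its groups overlapped. It read 1741, 1349.8, 20847 and 195 in CPE, against 9970.2, 9959.9, 10327 and 96.5 in CONTROL, with dim surroundings throughout. CPE array 3, the highest of the 8, had read 5629.8 before detrending, below 3 of the CONTROL arrays. Scaled to the whole array it differed by -1.79 (SE 1.33), but by -0.92 without CPE array 4, -2.81 without CPE array 3 and -3.15 without CONTROL array 4. Its first 30 bases are shown because they resemble a repeat that is scattered in many copies over the cattle genome, a remark from background, since no repeat annotation was used here.

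ARG1 A_73_P484208, start: aagggaatgacaatccactccagtattctt

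The fourth ARG1 probe, A_73_116882, was well above background on CPE array 1 only, at 34.6. Of the 3 liver markers, 0 were well above background on all 8 arrays and 2 on none. Neutrophil markers were present, with CSF3R, CXCR2 and S100A12 of 7 on all 8 arrays. The 5 neutrophil probes in the lit area had a median difference of -0.99, and the 5 of T cells 1.00. The summed neutrophil signal was 73721 to 113637 in CPE and 64840 to 94431 in CONTROL, and that of T cells 12667 to 28343 in CPE and 9972 to 12336 in CONTROL. Red cell markers summed to 207114 to 309042 in CPE and 71892 to 112808 in CONTROL, without overlap. NK cell markers summed to 899 to 2077 in CPE and 2549 to 3066 in CONTROL, also without overlap. All these sums are of unscaled signal and include probes in dim surroundings. In the lit area the 1 red cell probe tested differed by 0.28, and the 1 NK cell probe by -0.78. The part of these cells in the values of ARG1 and the other genes was not tested.

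ARG2, the mitochondrial arginase, read lower in CPE at its probe in bright surroundings. A_73_106263 (NM_001017942) had 504, 428, 309 and 477 units in CPE, against 749, 768, 865 and 546 in CONTROL. The groups did not overlap, nor did they with the 535 that CPE array 3 had before detrending. The lit-scaled level averaged -0.55 ± 0.13 in CPE, against 0.04 ± 0.15 in CONTROL (SD over the 4 arrays of a group), a difference of -0.59 (SE 0.11, 1.51-fold lower) that ran from -0.77 to -0.45 over 21 settings. The 31 bright neighbours had a median difference of 0.17, of the opposite sign. The other ARG2 probe, A_73_P440816, read the opposite way, at 96.8, 196, 112 and 97.6 in CPE, against 13.5, 12.1, 8.38 and 28.9 in CONTROL. It was well above background on 3 CPE arrays and 0 CONTROL arrays and in dim surroundings on all 8, and its 112 had been 9.99 before detrending.

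ODC1, the first enzyme of polyamine synthesis, was read well above background on all 8 arrays by 3 of its 4 probes. A_73_P082986 (NM_174130), in bright surroundings throughout, had 2685, 2905, 1528 and 2493 units in CPE, against 1592, 1563, 1536 and 1551 in CONTROL. The CONTROL arrays nearly coincided and CPE array 3 fell beside them, but it had read 2734 before detrending, with the other CPE arrays. The lit-scaled level averaged 1.92 ± 0.11 in CPE, against 1.16 ± 0.17 in CONTROL (SD over the 4 arrays of a group), a difference of 0.76 (SE 0.11, 1.70-fold). It ran from 0.54 to 0.84 over 21 settings of the lit area, but was -0.36 (SE 0.52) scaled to the whole array. The 38 bright neighbours had a median difference of 0.18, and local brightness at this spot was 1.17 to 1.35 above the limit on every array.

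The overlapping ODC1 probe also read higher in CPE on unscaled signal. A_73_P073241 had 1739.7, 597, 2721 and 1030.0 units in CPE, against 511, 444, 439 and 73.3 in CONTROL, and was well above background on all 8 arrays. Every CPE array was higher, and the ratio of group means was 4.15, or 3.55 before detrending, against 1.54 and 1.73 at A_73_P082986. The surroundings were lit on 3 CPE arrays and 0 CONTROL arrays. Within each group the dimmest array at this probe, CPE array 2 and CONTROL array 4, had the dimmest surroundings.

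The remaining ODC1 probes were brightest on arrays where their surroundings were bright. A_73_101019 read 4602, 1732, 8265 and 3122 in CPE, against 2054, 2149, 1778 and 806 in CONTROL. Its groups overlapped at CPE array 2, and scaled to the whole array it differed by 0.31 (SE 0.48). A_73_P283071 read 514, 9.02, 431 and 11.2 in CPE, against 291, 221, 285 and 9.15 in CONTROL. It was well above background on 2 CPE arrays and 3 CONTROL arrays, which were exactly the arrays on which its surroundings were lit.

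The authors' deposited table, which holds 1 averaged log2 value per group and probe, gave differences close to those scaled to the whole array. In the authors' deposited table CPE minus CONTROL was 1.10 at ASS1 A_73_P298676 and 0.05 at A_73_115648. NOS2 A_73_111433 stood at -0.06 and ODC1 A_73_P082986 at -0.37 in the authors' deposited table, against 1.07 and 0.76 in the lit area. SLC7A1 stood at -1.92 and ARG2 A_73_106263 at -1.72 there in the authors' deposited table, lower in CPE as in the lit area, and by more.

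For each of the 5 lit probes, up to 3 genes with the most similar profile over the 8 arrays are given, from 5777 lit probes. Likeness is the root mean square difference of centred lit-scaled levels, in log2. ASS1 was closest to NTAN1 (0.18), EIF4B (0.18) and UQCRFS1 (0.24), and SLC7A1 to RPGR (0.08) and ANKRD10 (0.10). NOS2 was closest to PI4K2B (0.18), C17H12orf43 (0.22) and SPR (0.23). ARG2 was closest to SLC6A6 (0.08), CA9 (0.08) and PIK3CB (0.09), and ODC1 to CHD4 (0.06), RPL9 (0.07) and CBX7 (0.07). SPR, sepiapterin reductase of tetrahydrobiopterin synthesis, was also on the list of related genes that follows.

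Related genes of arginine transport, the urea cycle, nitric oxide signalling, methylarginines, tetrahydrobiopterin and polyamines were taken as a list of 65, of which 61 had probes. In the lit area 31 probes of 27 genes were tested with limma over all 8025 probes. Of these 31 probes 13 rose, 4 fell and 14 did not pass the threshold. Called probes made up 54.8% of the list, against 48.4% of all probes tested, and the median difference was 0.21, against 0.03 for all. Of the 31 probes 26 were well above background on all 8 arrays, with 8 higher and 4 lower. With that filter, 1679 of all 7161 probes in the lit area were higher and 1775 lower. The other 5 passed the filter on dim probes through CPE alone, and all 5 had a positive difference, so nothing is read from them and their values are given without a test. They are counted in the 54.8% and in the median of 0.21, so nothing is read from that share either. Over the whole array 11 of 63 tested probes of the list were higher and 6 lower. The median of the 63 was -0.37, against -0.81 for all. All of the 11 except PRMT5 A_73_P498638 passed the filter on dim probes through CPE alone, so nothing is read from that count or median. Among the 38 probes of the list that were well above background on all 8 arrays, 2 were higher and 8 lower. Of all 9643 probes tested over the whole array with that filter, 204 were higher and 3463 lower.

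**Figure D4:**
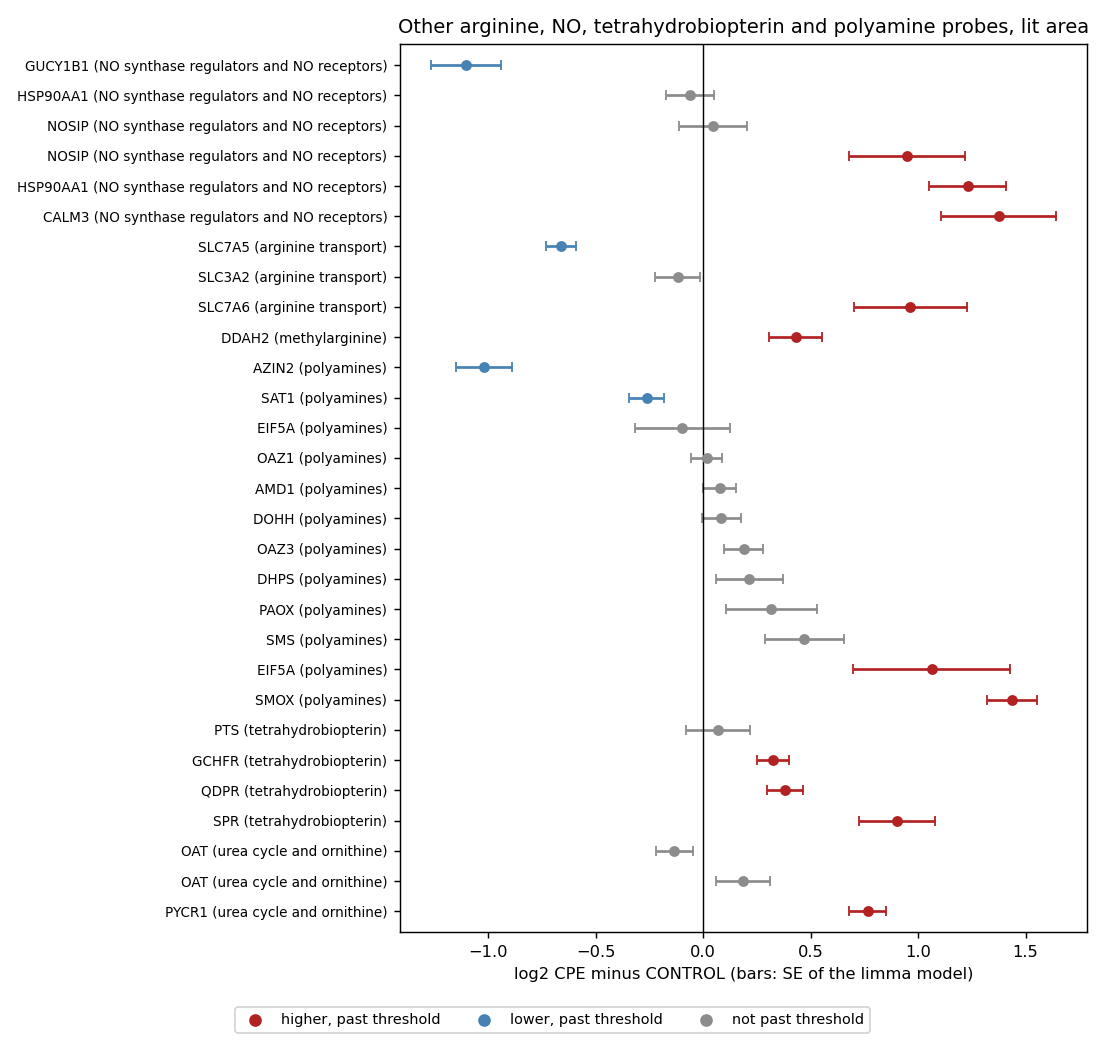
Log2 difference, CPE minus CONTROL, of 29 probes of related genes tested in the lit area, with SE of the limma model, grouped by role. Red and blue points passed an adjusted p of 0.05 higher and lower, and grey points did not. Of the tetrahydrobiopterin probes shown, 3 are red and PTS is grey, and of 12 polyamine probes 8 are grey. The red points of CALM3, SLC7A6, PYCR1 and EIF5A A_73_P038751 passed the filter on dim probes through CPE alone.

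Tetrahydrobiopterin genes rose in the lit area at 3 of the 4 probes well above background on all 8 arrays, where 24.5% of all probes tested were higher. Of all 7161 probes tested with that filter, 1679 were higher. Over the whole array 0 of 6 probes of these genes were called by limma in either direction, and 1 had an unadjusted p under 0.05. Their median was -0.49. SPR rose by 0.90 (SE 0.18, limma adjusted p = 0.0035), with 322, 287, 136 and 318 units in CPE, against 231, 166, 138 and 101 in CONTROL. Before scaling, CPE array 3 lay among the CONTROL arrays. QDPR, which recycles the used cofactor, rose by 0.38 (SE 0.08, limma adjusted p = 0.00752), and GCHFR, the feedback regulator of GCH1, by 0.32 (SE 0.08, limma adjusted p = 0.00784). PTS, which acts between GCH1 and SPR, had 0.07 (limma adjusted p = 0.725). Without scaling between arrays, SPR (0.72), QDPR (0.14) and GCHFR (0.14) did not pass the threshold, and with normexp neither QDPR (0.26) nor GCHFR (0.29) did. Scaled to the whole array their signs turned, to -0.22 for SPR, -0.76 for QDPR and -0.80 for GCHFR.

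Regulators of the synthases and receptors of nitric oxide rose at 3 of the 6 probes well above background on all 8 arrays and fell at 1. With that filter, 1679 of all 7161 probes in the lit area rose and 1775 fell. HSP90AA1, the chaperone that binds the synthases, rose by 1.23 at A_73_P129021 (SE 0.18, limma adjusted p = 0.000742), but had -0.06 at A_73_103158 (limma adjusted p = 0.675). Scaled to the whole array A_73_P129021 had 0.11 (limma adjusted p = 0.839). CALM3, a calmodulin gene, read 85.6, 151, 67.6 and 78.9 in CPE, against 46.3, 44.5, 54.8 and 22.3 in CONTROL, and was well above background on 4 CPE arrays and 1 CONTROL array. NOSIP, a protein that interacts with the endothelial synthase, rose by 0.95 at A_73_P336516 (SE 0.27, limma adjusted p = 0.0191) and had 0.05 at A_73_P354971 (limma adjusted p = 0.823). The probes of HSP90AA1 and of NOSIP thus disagreed within the gene. NOSIP did not pass without scaling (0.77), with normexp (0.68) or after local centring (0.27), and scaled to the whole array A_73_P336516 had -0.18.

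GUCY1B1 (GUCY1B3 in the files), a subunit of the guanylate cyclase that senses nitric oxide, fell at A_73_P185322, its probe in the lit area. That probe read 157, 152, 54.9 and 152 in CPE, against 303, 289.9, 285 and 278 in CONTROL, with no overlap. The lit-scaled level averaged -2.38 ± 0.33 in CPE, against -1.28 ± 0.14 in CONTROL (SD over the 4 arrays of a group), a difference of -1.10 (SE 0.16, limma adjusted p = 0.000778). With normexp it was -0.48 and did not pass the threshold. Another GUCY1B1 probe, A_73_110740, differed the other way: it read 381, 537, 231 and 448 in CPE, against 9.48, 10.1, 8.03 and 9.15 in CONTROL. A_73_110740 was well above background on 4 CPE arrays and 0 CONTROL arrays, in dim surroundings on all 8. It passed the filter on dim probes through CPE alone, so its values are given without a test. A_73_P397256 was well above background on 0 arrays, so the GUCY1B1 probes disagreed.

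Among the 11 polyamine probes well above background on all 8 arrays 1 rose, 2 fell and 8 did not pass. With that filter, 1679 of all 7161 probes in the lit area rose and 1775 fell. SMOX, spermine oxidase, read 442, 348, 256 and 416 in CPE at A_73_P074016, against 153, 145, 152 and 149 in CONTROL, and rose by 1.44 (SE 0.12, limma adjusted p = 3.4e-05). Every CPE array was higher, and the difference ran from 0.96 to 1.58 over 20 settings of the lit area, but scaled to the whole array it was 0.31 (limma adjusted p = 0.606). Another SMOX probe, A_73_120220, read 96.7, 107, 232 and 84.7 in CPE, against 69.2, 108, 104 and 151 in CONTROL, with overlap. It lay in dim surroundings on all 8 arrays and was well above background on 3 CPE arrays and 4 CONTROL arrays. EIF5A, the factor that carries the polyamine-derived hypusine, had -0.10 at A_73_P441181 (limma adjusted p = 0.742). Its probe A_73_P038751, well above background on 4 CPE arrays and 3 CONTROL arrays, read 119.6, 139, 91.3 and 103 in CPE, against 89.4, 72.3, 93.6 and 22.2 in CONTROL. The groups overlapped there before scaling but not on the lit-scaled levels. EIF5A A_73_105922, in dim surroundings on all 8 arrays, read 3500, 1798, 12382 and 520 in CPE, against 122, 11.3, 15.8 and 10.1 in CONTROL. It was well above background on 4 CPE arrays and 1 CONTROL array, so no test is given for it. AZIN2, an antizyme inhibitor, fell by 1.02 (SE 0.13, limma adjusted p = 0.000382), with 238, 148, 104 and 208 in CPE, against 411, 378, 386 and 354 in CONTROL, and with normexp its -0.58 did not pass. SAT1, the acetylase of spermidine and spermine, fell by 0.26 (SE 0.08, limma adjusted p = 0.0278), a call lost without CPE array 1 or 4 or any single CONTROL array, and local centring turned the value to 0.07.

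The 4 polyamine probes with the next largest differences did not pass: SMS, spermine synthase, had 0.47 (limma adjusted p = 0.0618), PAOX 0.32 (limma adjusted p = 0.243), DHPS 0.21 (limma adjusted p = 0.279) and OAZ3 0.19 (limma adjusted p = 0.115). OAZ1, the antizyme that marks ornithine decarboxylase for degradation, had 0.02 at A_73_104728 (SE 0.07, limma adjusted p = 0.862). The lit-scaled level there was 5.04 ± 0.01 in CPE, against 5.02 ± 0.06 in CONTROL (SD over the 4 arrays of a group). Another OAZ1 probe, A_73_P049391, was well above background on all 8 arrays, with surroundings lit on 4 CPE arrays and 0 CONTROL arrays. It read 30942, 32792.5, 20409 and 25483 in CPE, against 10500.5, 1445, 5616 and 5163 in CONTROL. Scaled to the whole array it differed by 1.61 (limma adjusted p = 0.0607), with overlap.

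In the lit area, 2 arginine transport probes were well above background on all 8 arrays: 1 was lower and 1 did not pass. With that filter, 1679 of all 7161 probes in the lit area were higher and 1775 lower. SLC7A5, a large neutral amino acid carrier, read 448, 412, 248 and 403 in CPE, against 721, 689, 695 and 554 in CONTROL, and fell by 0.66 at A_73_P350516 (SE 0.07, limma adjusted p = 0.000122). Another SLC7A5 probe, A_73_P040976, differed the other way, with 97.3, 1829, 1363 and 51.4 in CPE, against 9.48, 10.1, 8.03 and 9.15 in CONTROL. A_73_P040976 was well above background on 4 CPE arrays and 0 CONTROL arrays, in dim surroundings on all 8. It passed the filter on dim probes through CPE alone, so no test is given for it. The direction of these probes thus disagreed. The partner of SLC7A5, SLC3A2, the heavy chain of several such carriers, had -0.12 (SE 0.10, limma adjusted p = 0.38). SLC7A6, which pairs with SLC3A2 to exchange arginine, read 45.4, 103, 38.8 and 65.7 in CPE, against 34.97, 35.8, 47.2 and 22.9 in CONTROL, with overlap, and was well above background on 4 CPE arrays and 1 CONTROL array. Of the other lists, PYCR1, of proline synthesis, read 94.4, 85.1, 49.3 and 80.0 in CPE, against 53.3, 58.9, 48.5 and 41.1 in CONTROL. The PYCR1 groups overlapped before scaling but not on the lit-scaled levels. This probe was well above background on 4 CPE arrays and 3 CONTROL arrays. The 2 probes of OAT, ornithine aminotransferase, that were tested in the lit area did not pass (-0.13 and 0.19, limma adjusted p = 0.227 and 0.251). A further OAT probe, A_73_P412991, read 20.7, 258, 164 and 6.95 in CPE, against 9.48, 10.1, 8.03 and 9.15 in CONTROL. It was well above background on 3 CPE arrays and 0 CONTROL arrays, with surroundings lit on 1 CPE array only. DDAH2, which degrades methylarginines that inhibit nitric oxide synthases, rose by 0.43 (SE 0.13, limma adjusted p = 0.021), with groups that overlapped, and scaled to the whole array it had -0.69.

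**Figure D5:**
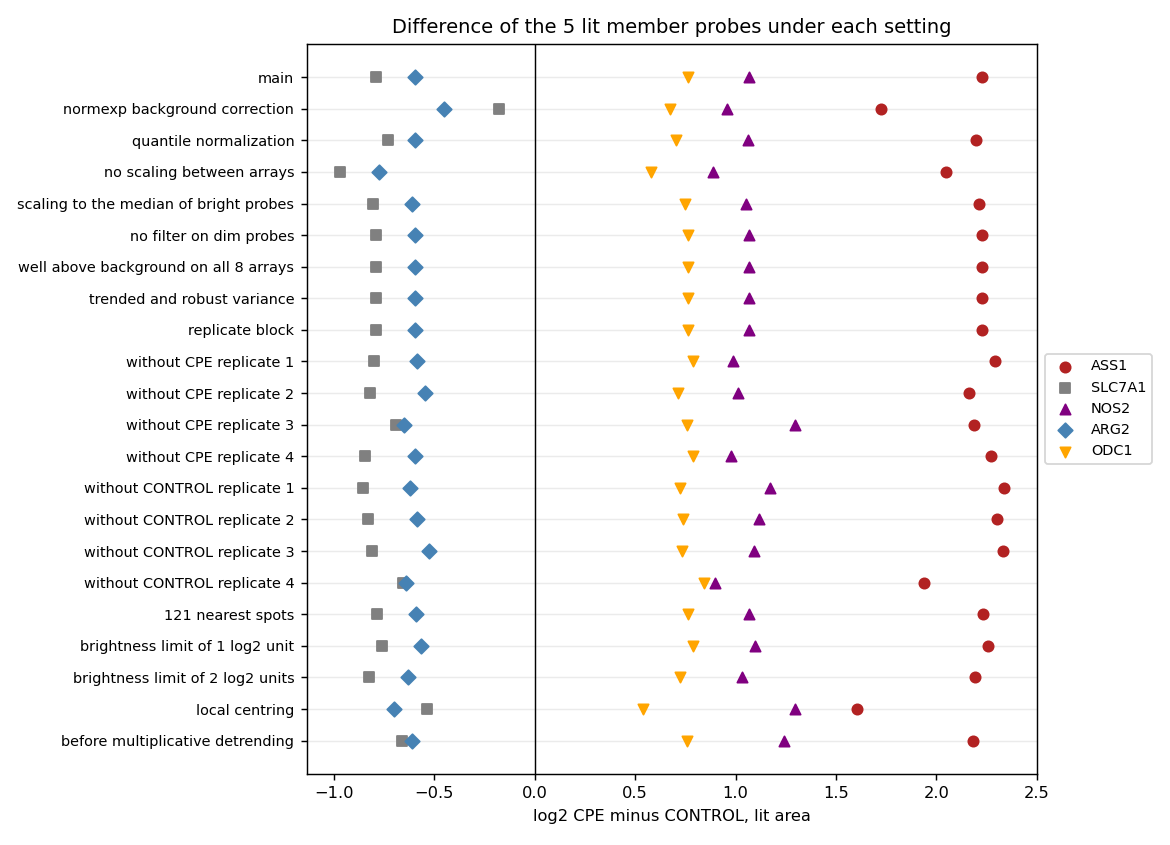
Log2 difference, CPE minus CONTROL, of the 5 lit probes (symbols) under each setting of the lit area (rows). No symbol crosses 0; SLC7A1 is nearest to it with normexp, at -0.18, and ASS1 runs from 1.60 to 2.34.

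Across settings of the lit area, each of the 5 probes kept its sign. The largest movements were those of ASS1, between 1.60 and 2.34, and SLC7A1, between -0.97 and -0.18. The probes nearest the limit of bright surroundings were NOS2 A_73_111433 inside it, at 0.78 log2 units above on its dimmest array, and ASS1 A_73_115648 outside it, at 0.17 below.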

How the data were processed

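RNA of bovine whole blood was read on 8 single-colour Cy3 arrays, 4 CPE and 4 CONTROL. Per the submitters' processing notes the authors used Agilent Feature Extraction 10.10.1.1. The deposited scanner files hold signal intensity, background-subtracted with a floor for low values and, on CPE array 3, multiplicatively detrended, per the file headers. The authors' table of the series gives a log2 value for each group and probe; the authors' normalisation and test are not given in the sources used here. Genes and lists were chosen with earlier results of these data known.

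Control and outlier spots were left out, and log2 processed signal was taken minus the 75th percentile of the lit spots, or of all spots for the whole array. Tests covered probes that passed the well-above-background call on every array of either group, with at least 2 values per group, by limma 3.58.1 in R 4.3.3 (two-sided, Benjamini-Hochberg over all probes, threshold 0.05). The script was tested on simulated data. p-values measure the spread between arrays, whose number limits the precision. Normexp (offset 50) used the median in place of the mean signal, which was not among the columns used. Alternatives also covered scaling, filters, the variance model, the replicate block, each array left out, and the definition of bright surroundings; the signal before multiplicative detrending was chosen after seeing the data.

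Every member probe was described. Named related genes were those called by limma with no overlap and all 8 spots well above background, and up to 4 of largest difference that did not pass; CALM3, SLC7A6, PYCR1, DDAH2, EIF5A, PTS, OAT, OAZ1 and SLC3A2 and second probes were added after their values were seen. Some items that the rules name are not reported here. Similar profiles were ranked by root mean square difference among named lit probes.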

Additional observations from a re-analysis of the deposited data

Results flagged for a closer look

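Among 56 groups of 4 arrays examined, 11 held 1 array apart from the other 3, its gap to the nearest over the group's range being above Dixon's critical value; chance flags about 1 in 20 groups. All 11 were CPE array 3, the array with multiplicative detrending, or CONTROL array 4, the array with the fewest lit spots. CPE array 3 was lowest for NOS2 A_73_111433 (0.899), DHPS (0.940) and GUCY1B1 (GUCY1B3 in the files, 0.893). CONTROL array 4 was lowest for ASS1 A_73_P298676 (0.909), ARG1 A_73_P484208 (0.935), ODC1 A_73_P073241 (0.891) and SMS (0.927). It was highest for ODC1 A_73_P082986 (0.868), SAT1 (0.930), DHPS (0.853) and GUCY1B1 (0.936). The part of detrending or dim surroundings in these gaps was not tested, apart from the values before detrending given above.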

How the results depend on the processing

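In the lit area 3888 probes were called. The count was 1703 with normexp, 1469 without scaling (437 higher, 1032 lower) and 5679 after local centring (3533 higher, 2146 lower), and 3214 to 4405 with 1 array left out. Without a filter on dim probes 2002 were higher and 3533 lower, and before multiplicative detrending, chosen after seeing the data, 4860 were called. Over the whole array 5808 probes were called, against 3129 with normexp, 3667 among probes well above background on all 8 arrays (204 higher, 3463 lower) and 3757 to 6814 with 1 array left out, lowest without CONTROL array 2. Scaling to bright probes gave 3908 higher and 2341 lower, and no scaling 3239 and 1146. The whole-array median of -0.81 became 0.08 with bright-probe scaling and 0.13 without scaling.

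Of the related probes 17 were called in the lit area, against 6 with normexp, 7 without scaling, 9 with a brightness limit of 1 log2 unit (18 probes tested) and 14 to 17 with 1 array left out. Over the whole array 17 were called, against 10 with the strict filter (2 higher and 8 lower of 38 tested) and 11 to 18 with 1 array left out, lowest without CONTROL array 4. SAT1 turned to 0.0713 after local centring. The cause of these changes was not tested. With the replicate number as a replicate block the counts were 3762, 7025, 16 and 23, and SAT1 lost its call. Arrays of the same number correlated with r of -0.10, -0.11, 0.24 and 0.38 and not every array correlated best with its own number, so the numbers do not pair the arrays. A slide block could not be fitted, since each slide held 1 group. Of the member values under alternatives, 215 moved by less than 1 SD and 22 by more. Among settings of the same area, the sign changed at 1 member probe, ASS1 A_73_115648. Its 0.05 was negative in 5 of the 8 settings that leave out 1 array, down to -0.19. Between the lit area and the whole array, the sign also changed at NOS2 A_73_111433 (1.07 and -0.06) and ODC1 A_73_P082986 (0.76 and -0.36).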
